A study of Homo sapiens with 19 samples.

Results

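The genes described here are APOE, the apolipoproteins APOC1 and APOD, the liver X receptors NR1H3 and NR1H2, and the LXR target genes ABCA1, ABCG1, MYLIP and LPCAT3. These 9 genes were matched by symbol to 9 of the 44717 Ensembl gene identifiers listed for any of the 19 RNA-seq samples. The list was drawn up with their levels in both cell lines and their change in each of the 4 knockdown comparisons in view, so those values were used in choosing them and are given as a description, without a test. The samples were 501Mel cells, a human melanoma line, and Hermes 3A cells, an immortalised but untransformed human melanocyte line, infected with lentiviral short hairpin RNA (shRNA) vectors. In 501Mel cells the groups were the scramble control shSCR1 and shBRG1 (3 replicates each) and the scramble control shSCR2 and shMITF (2 replicates each). In Hermes 3A cells they were the scramble control shSCR, shBRG1 and shMITF (3 replicates each), so both Hermes 3A comparisons share their control samples. BRG1 is the ATPase of the SWI/SNF chromatin remodelling complex, encoded by SMARCA4, and MITF is the transcription factor that governs the melanocyte lineage. A single shRNA was used against each target. Hermes 3A cells were grown with the phorbol ester TPA, cholera toxin, stem cell factor and endothelin-1, which were not listed for the 501Mel medium, so line and medium cannot be told apart in a difference of level between the lines.

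Liver X receptors are nuclear receptors that bind oxysterols, the oxidised derivatives of cholesterol, and act on DNA as heterodimers with the retinoid X receptors. Their best known targets remove sterol from the cell. ABCA1 and ABCG1 are membrane transporters that pass cholesterol and phospholipid to apolipoproteins, APOE and APOC1 are apolipoproteins whose genes lie side by side on chromosome 19, MYLIP is a ubiquitin ligase that limits lipoprotein uptake, and LPCAT3 places polyunsaturated acyl chains in phospholipids. APOE is also the ligand by which lipoprotein particles are taken up through lipoprotein receptors, and secreted APOE has been studied in melanoma as a restraint on invasion. APOD is a lipocalin that shares the name but not the ancestry of the other apolipoproteins.

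The promoter windows of APOE, APOC1, ABCA1 and NR1H2 are shown because, among the genes with a window, these had the most frequent or largest changes in the knockdown comparisons. Each window runs from 250 bases before to 50 bases after an annotated start, is written 5′ to 3′ on the strand of the gene, and comes from RefSeq on GRCh38.p14 (windows were given for 7 of the 9 genes). They lie at chr19:44905546-44905845 (plus strand) for APOE, chr19:44914422-44914721 (plus strand) for APOC1, chr9:104928106-104928405 (minus strand) for ABCA1 and chr19:50376207-50376506 (plus strand) for NR1H2. Capitals mark the hexamers CACGTG and CATGTG, which are E-boxes of the kind that MITF binds, and AGGTCA, a nuclear receptor half-site, each searched on both strands.
APOE: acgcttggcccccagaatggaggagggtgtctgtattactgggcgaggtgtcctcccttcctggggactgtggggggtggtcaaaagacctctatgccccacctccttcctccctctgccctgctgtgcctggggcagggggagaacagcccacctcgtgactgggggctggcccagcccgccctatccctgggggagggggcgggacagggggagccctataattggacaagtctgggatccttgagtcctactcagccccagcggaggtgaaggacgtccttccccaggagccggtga
APOC1: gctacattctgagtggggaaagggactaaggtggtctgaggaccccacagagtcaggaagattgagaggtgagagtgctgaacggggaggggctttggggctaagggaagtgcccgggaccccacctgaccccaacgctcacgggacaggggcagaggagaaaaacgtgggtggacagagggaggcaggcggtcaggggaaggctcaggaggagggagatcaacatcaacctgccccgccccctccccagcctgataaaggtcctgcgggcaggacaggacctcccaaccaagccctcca
ABCA1: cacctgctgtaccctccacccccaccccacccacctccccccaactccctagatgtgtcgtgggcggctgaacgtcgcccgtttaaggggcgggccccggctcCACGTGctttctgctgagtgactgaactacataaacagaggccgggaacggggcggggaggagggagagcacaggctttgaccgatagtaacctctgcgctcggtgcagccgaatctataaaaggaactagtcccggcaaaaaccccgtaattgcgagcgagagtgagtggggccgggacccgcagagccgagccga
NR1H2: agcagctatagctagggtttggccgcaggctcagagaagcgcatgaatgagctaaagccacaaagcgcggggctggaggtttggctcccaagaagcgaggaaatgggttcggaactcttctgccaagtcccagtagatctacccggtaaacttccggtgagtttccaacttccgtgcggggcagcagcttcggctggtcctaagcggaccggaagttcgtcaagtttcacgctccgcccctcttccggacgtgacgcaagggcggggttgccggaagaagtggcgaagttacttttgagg
The ABCA1 window held 1 CACGTG, beginning 147 bases before the start. None of these 3 hexamers was in the windows printed for APOE, APOC1 or NR1H2. Of the 12 windows of the 7 genes, the one other exact match was an AGGTCA in a window of NR1H3, beginning 140 bases before that start. Only exact matches were searched, so half-sites that differ from AGGTCA were not marked. An LXR site made of such half-sites would be missed, so the windows do not show which of these genes have one. Among all 35116 promoter windows, 7.26% held CACGTG, 11.1% held CATGTG and 13.8% held AGGTCA.

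Each sample had between 29158502 and 78857900 reads counted in genes. SMARCA4, the gene targeted by shBRG1, had 178 to 193 CPM (read counts scaled to the total of each library) with shSCR1 and 35.8 to 40.6 CPM with shBRG1 in 501Mel cells, and 227 to 255 CPM with shSCR and 44.4 to 47.5 CPM with shBRG1 in Hermes 3A cells. MITF had 1048 and 1186 CPM with shSCR2 and 494 and 546 CPM with shMITF in 501Mel cells, and 1014 to 1119 CPM with shSCR and 456 to 719 CPM with shMITF in Hermes 3A cells. The targeted gene was thus lower in every knockdown sample than in every sample of its own control. MITF with shSCR1 was 513 to 609 CPM, a range that includes one of the shMITF samples. With shBRG1 MITF was 190.5 to 218 CPM in 501Mel cells and 767 to 780 CPM in Hermes 3A cells, under every sample of its control. SOX10 had 464.5 to 496 CPM with shSCR1 and 88.1 to 95.3 CPM with shBRG1 in 501Mel cells. So MITF was lower with both shRNAs, and their effects are not those of separate losses. Sums over markers are CPM by library total alone, without TMM factors, so they are on another scale than the single genes. The 7 melanocyte lineage markers were detected in every group, and their summed level moved with the knockdowns. It was 30600 to 32300 CPM with shSCR1 and 3890 to 4310 CPM with shBRG1, 20100 to 21700 CPM with shSCR2 and 12000 to 12200 CPM with shMITF, and in Hermes 3A cells 54700 to 55800 CPM with shSCR, 28900 to 29700 CPM with shBRG1 and 24200 to 31000 CPM with shMITF. The summed levels of markers of other cell types also differed in some knockdown groups, and were far lower. Each of these sums came mostly from few genes, and a gene not listed for a group entered as 0. The 6 fibroblast markers summed to 3.70 to 5.19 CPM with shSCR1 and 20.4 to 24.4 CPM with shBRG1, and to 7.18 to 8.63 CPM with shSCR2 and 7.87 to 14.3 CPM with shMITF. In Hermes 3A cells they summed to 61.6 to 69.8 CPM with shSCR, 130 to 141 CPM with shBRG1 and 101 to 204 CPM with shMITF. Most of this Hermes 3A sum was COL1A2, at means of 67.3, 139.0 and 142 CPM in the same order. LUM had 6.41, 3.66 and 4.47 CPM there, so the markers did not move as a set. With shBRG1 in 501Mel cells the rise lay mostly in COL1A1 (1.81 to 8.77 CPM) and LUM (1.70 to 7.17 CPM). The 5 macrophage markers that could be matched, of a cell type in which APOE and ABCA1 are abundant, summed to 0.53 to 1.24 CPM with shSCR1, 5.44 to 5.91 CPM with shBRG1 in 501Mel cells and at most 1.03 CPM in the other groups, with C1QA or C1QB at 0 or not listed in every group. The higher sum with shBRG1 in 501Mel cells was mostly CSF1R, which had 0.39 CPM on average with shSCR1 and 3.86 CPM with shBRG1. The 4 keratinocyte markers summed to 28.3 to 30.3 CPM with shSCR1, 37.5 to 40.1 CPM with shBRG1 in 501Mel cells, 27.9 to 29.7 CPM with shSCR and 40.4 to 57.5 CPM with shMITF in Hermes 3A cells, and 26.1 to 34.8 CPM in the other groups, with KRT1 at 0 or not listed in 6 of the 7 groups. Nearly all of this sum was KRT10. KRT5, KRT14 and KRT1 had at most 0.090 CPM on average in any group that listed them. The part of any of these markers in the results that follow was not tested.

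Levels are compared between genes as CPM per kilobase of exon, and between samples as CPM, with all 19 samples normalised together. APOE was the most abundant of the 9 genes per kilobase in the 4 groups of 501Mel cells and in Hermes 3A cells with shSCR. It had 373.6 ± 16.0 CPM per kilobase (SD, n = 3) with shSCR1 and 81.5 ± 7.28 (SD, n = 3) in the Hermes 3A control. Next in order with shSCR1 came APOD at 28.6 ± 2.18, MYLIP at 19.5 ± 0.78, APOC1 at 8.54 ± 0.38, LPCAT3 at 4.93 ± 0.090, NR1H3 at 3.64 ± 0.23 and NR1H2 at 3.42 ± 0.13 CPM per kilobase (SD, n = 3). NR1H3 and NR1H2 overlapped between samples there, whereas each earlier pair of neighbours did not. ABCG1 and ABCA1 closed the order at 0.0196 ± 0.0099 and 0.0171 ± 0.0017 CPM per kilobase, overlapped each other, and had 3 to 10 counts a sample. In the Hermes 3A control the order after APOE was NR1H2 at 17.4 ± 1.73, MYLIP at 14.5 ± 0.42, LPCAT3 at 6.91 ± 0.010, NR1H3 at 2.27 ± 0.12, APOC1 at 0.98 ± 0.092, APOD at 0.74 ± 0.15, ABCA1 at 0.73 ± 0.066 and ABCG1 at 0.071 ± 0.011 CPM per kilobase (SD, n = 3), and only APOD and ABCA1 overlapped as neighbours. With shBRG1 or shMITF in Hermes 3A cells NR1H2 stood first, at 30.1 ± 0.63 and 38.1 ± 3.10 CPM per kilobase, and with shMITF it overlapped APOE at 25.3 ± 8.89.

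**Figure D1:**
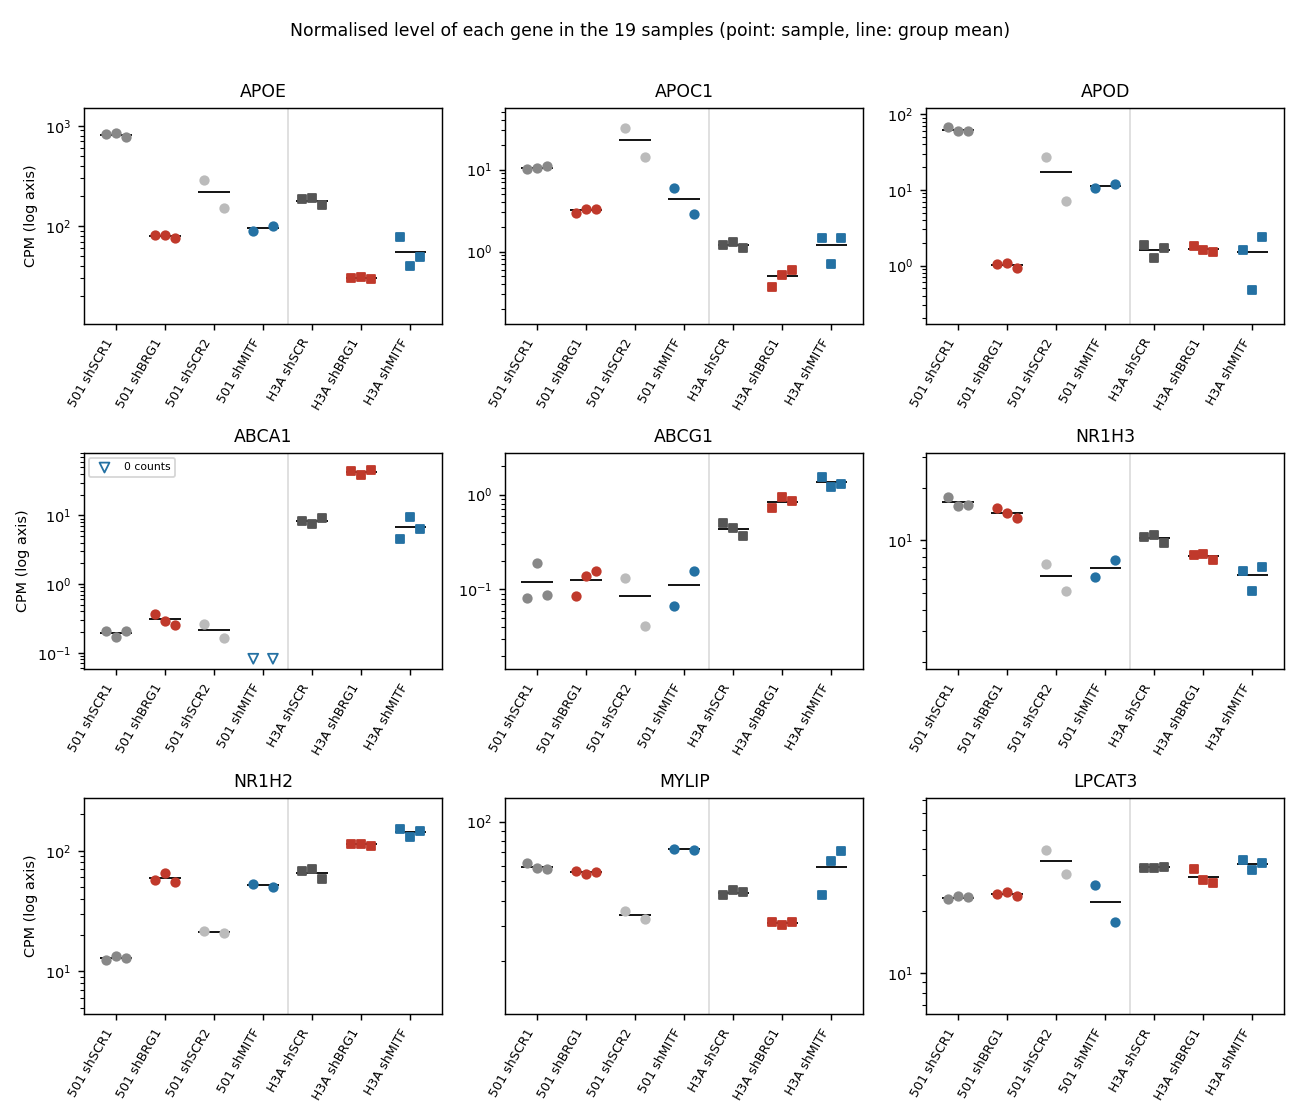
CPM of the 9 genes on log axes in the 19 samples, by group (axis labels shorten the names of both lines; points are samples, lines are group means, and open triangles mark samples with 0 counts, drawn at an arbitrary height below the lowest value). APOE is lower in every shBRG1 and shMITF sample than in every sample of its own control, and ABCA1 is at 39.4 to 45.6 CPM in Hermes 3A cells with shBRG1 against 7.55 to 9.04 CPM in the control.

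A gene was called changed when the log2 fold change exceeded 1 in size at an adjusted p below 0.05. By these thresholds shBRG1 in 501Mel cells called NR1H2 higher and APOE, APOC1 and APOD lower among the 8 of the 9 genes that passed the filter on low counts, where 21.7% of the 20514 genes tested were called higher and 17.4% lower. With shMITF in 501Mel cells MYLIP and NR1H2 were called higher and APOC1 lower among 7 tested, beside 5.59% of the 17701 genes tested called higher and 3.40% lower. With shBRG1 in Hermes 3A cells ABCA1 was called higher and APOE and APOC1 lower among 9 tested, beside 5.78% of 17222 genes higher and 3.47% lower. With shMITF in Hermes 3A cells ABCG1 and NR1H2 were called higher and APOE lower among 9 tested, beside 3.35% of 16508 genes higher and 4.04% lower. As the genes were chosen on these contrasts, nothing is read from these counts. The median log2 fold change over the tested members was -0.21, -0.57, -0.15 and 0.02 in the same order, beside 0.05, 0.01, 0.01 and 0.05 over all genes tested. With library sizes in place of TMM factors the log2 fold changes of all genes shifted upward by a median of 0.35 for shBRG1 in 501Mel cells and 0.11 for shBRG1 in Hermes 3A cells. The share of calls that were higher went from 55.5% to 72.1% for shBRG1 in 501Mel cells and from 45.3% to 56.0% for shMITF in Hermes 3A cells. In bulk RNA, fewer cells that express a gene and less RNA of it per cell cannot be told apart.

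**Figure D2:**
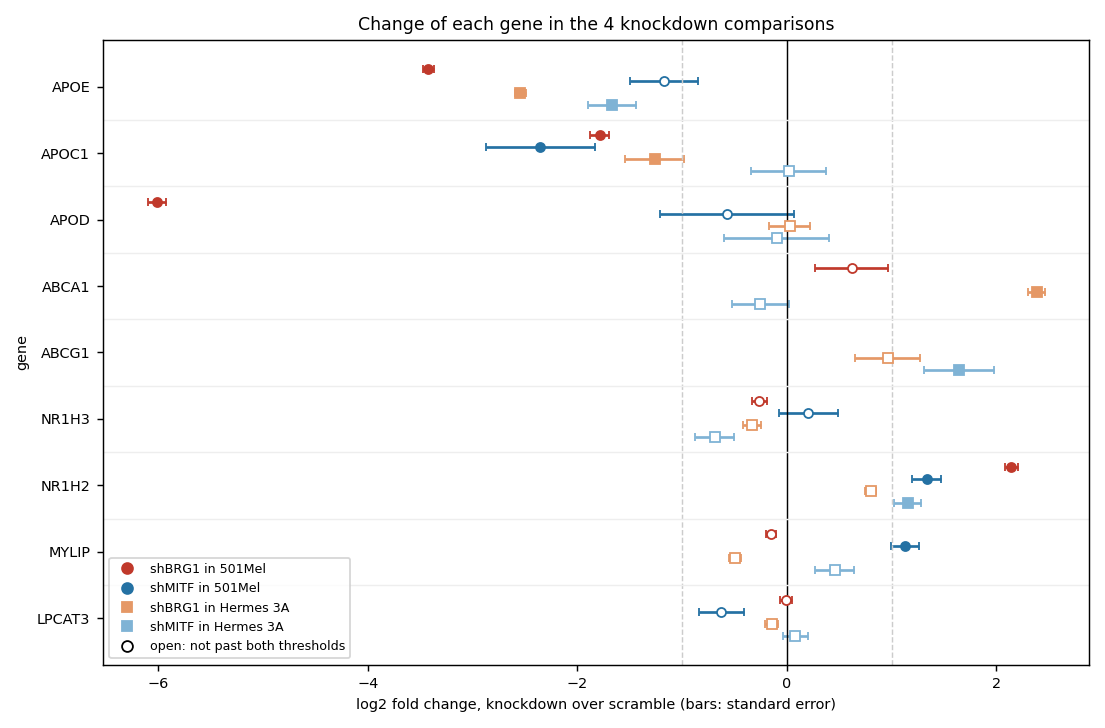
Log2 fold change of each gene, knockdown over its own scramble control, in the 4 comparisons (points are edgeR estimates, bars are standard errors, filled points passed both thresholds, dashed lines mark a log2 fold change of 1 in either direction). APOE lies left of 0 in all 4 comparisons and NR1H2 right of 0 in all 4, and ABCA1 and ABCG1 have no point where their counts were too low to be tested.

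APOE (ENSG00000130203, chromosome 19, 44905754 to 44909393 on GRCh38) had lower levels in every knockdown sample than in every control sample of all 4 comparisons, with the largest differences under shBRG1. In 501Mel cells it had 833, 844 and 779 CPM in the 3 shSCR1 samples and 81.5, 81.0 and 76.8 CPM in the 3 shBRG1 samples. These groups lay far apart relative to their own spread, and the log2 fold change was -3.42 (standard error 0.053), 10.7-fold lower. Hermes 3A cells had APOE at 184.5, 191 and 161 CPM with shSCR, 30.4, 30.9 and 29.7 CPM with shBRG1, and 77.2, 39.7 and 49.1 CPM with shMITF. The log2 fold changes were -2.54 (standard error 0.055), 5.83-fold lower, for shBRG1 and -1.67 (standard error 0.23), 3.18-fold lower, for shMITF, with every knockdown sample under every control sample. In 501Mel cells APOE had 289 and 150.2 CPM in the 2 shSCR2 samples and 90.1 and 99.4 CPM in the 2 shMITF samples. The control samples differed from each other by more than the lower of them differed from the shMITF samples, and the log2 fold change of -1.17 (standard error 0.32), 2.25-fold lower, did not pass the adjusted p threshold in edgeR. It passed both thresholds in DESeq2, at -1.20, and in edgeR with no filter on low counts, at -1.17, with all groups of the line in 1 fit, at -1.19, and with the replicate block, at -1.10. It failed the adjusted p threshold with library sizes in place of TMM factors, at -1.08, and under a minimum of 10 counts per sample, at -1.15. With both scramble groups as the control it was -2.58 and failed that threshold too. Without shSCR2 replicate 1 it was -0.63, short of the fold threshold, and without shSCR2 replicate 2 it was -1.59. Without shMITF replicate 1 it was -1.09, and without shMITF replicate 2 it was -1.28. The shBRG1 effect on APOE in 501Mel cells minus that in Hermes 3A cells was -0.91 on the log2 scale (standard error 0.072), short of the fold threshold.

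APOC1 (ENSG00000130208, chromosome 19, 44914247 to 44919349), the neighbour of APOE, followed APOE in 3 of the comparisons but at a much lower level. In 501Mel cells it had 10.1, 10.5 and 10.98 CPM with shSCR1 and 2.98, 3.26 and 3.32 CPM with shBRG1, for a log2 fold change of -1.79 (standard error 0.091). It had 31.7 and 14.1 CPM with shSCR2 and 5.93 and 2.85 CPM with shMITF, for a log2 fold change of -2.35 (standard error 0.52). In both comparisons the groups did not overlap, but the shMITF value rests on few samples: it no longer passed the thresholds without shMITF replicate 1, at -2.95, without shMITF replicate 2, at -1.94, or with the shSCR1 samples added to the control, at -1.8. APOC1 in Hermes 3A cells stood near 1 CPM, with 1.21, 1.32 and 1.10 CPM with shSCR, 0.37, 0.52 and 0.60 CPM with shBRG1, and 1.45, 0.70 and 1.47 CPM with shMITF. The shBRG1 samples were all lower (log2 fold change -1.26, standard error 0.28), while the shMITF samples spanned the control range (0.02, standard error 0.36), unlike APOE in the same libraries. The annotated exons of APOC1 share 43.2% of their length with a gene model on the same strand, AC011481.3, that the files do not list, and APOC1P1, its pseudogene copy, had at most 6 counts a sample on average in any group. Within samples, APOE stood 39.9 to 46.5 times above APOC1 per kilobase with shSCR1, 13.0 to 15.4 times with shBRG1, 5.12 and 6.01 times with shSCR2 and 8.53 and 19.6 times with shMITF. For Hermes 3A cells the ratio was 81.1 to 85.6 with shSCR, 27.8 to 46.4 with shBRG1 and 18.8 to 31.9 with shMITF, so the balance of the pair shifted toward APOC1 in each knockdown group except shMITF in 501Mel cells.

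APOD (ENSG00000189058, chromosome 3, 195568702 to 195584205) had the largest change of the 9 genes, and had it in a single comparison. It had 68.5, 60.4 and 59.95 CPM with shSCR1 and 1.05, 1.07 and 0.93 CPM with shBRG1 in 501Mel cells, for a log2 fold change of -6.01 (standard error 0.089), 64.4-fold lower. APOD in Hermes 3A cells was low throughout, at 1.90, 1.26 and 1.69 CPM with shSCR, 1.798, 1.61 and 1.53 CPM with shBRG1 and 1.62, 0.48 and 2.39 CPM with shMITF. Both Hermes 3A comparisons overlapped, with log2 fold changes of 0.03 (standard error 0.20) and -0.10 (standard error 0.50). The shSCR2 samples had 27.4 and 7.13 CPM and the shMITF samples 10.6 and 11.96 CPM, so the shMITF samples lay between the controls. Which control sample was kept decided the direction there: the log2 fold change was -0.57 (standard error 0.64) with both, 0.69 without shSCR2 replicate 1 and -1.26, past both thresholds, without shSCR2 replicate 2.

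NR1H2 (ENSG00000131408, chromosome 19, 50329653 to 50382982), which encodes the broadly expressed LXRβ, was higher in every knockdown sample than in every control sample of its own comparison. In 501Mel cells it had 12.4, 13.4 and 12.8 CPM with shSCR1 and 57.7, 65.3 and 55.4 CPM with shBRG1, for a log2 fold change of 2.14 (standard error 0.066), 4.42-fold higher. It had 21.6 and 20.8 CPM with shSCR2 and 53.3 and 50.5 CPM with shMITF, for a log2 fold change of 1.33 (standard error 0.14), 2.52-fold higher. The replicates of each group were close together in both comparisons. NR1H2 in Hermes 3A cells started from a higher level, 67.3, 70.6 and 58.1 CPM with shSCR, and had 114.0, 114.5 and 110.2 CPM with shBRG1 and 153, 130.1 and 146 CPM with shMITF. The log2 fold changes were 0.80 (standard error 0.053), short of the fold threshold, and 1.15 (standard error 0.13), so shMITF gave the larger value in Hermes 3A cells and shBRG1 in 501Mel cells. Over the 19 samples the log2 level of NR1H2 ran opposite to that of APOE (Pearson r = -0.90), a description in which the points share libraries, lines and control groups.

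NR1H3 (ENSG00000025434, chromosome 11, 47248300 to 47269032), which encodes LXRα, moved little beside NR1H2. It had 17.7, 15.8 and 16.0 CPM with shSCR1 and 15.3, 14.4 and 13.5 CPM with shBRG1, for a log2 fold change of -0.26 (standard error 0.070) that became 0.09 with library sizes in place of TMM factors. It had 7.32 and 5.11 CPM with shSCR2 and 6.11 and 7.74 CPM with shMITF, which overlapped. In Hermes 3A cells it had 10.5, 10.7 and 9.68 CPM with shSCR, 8.23, 8.39 and 7.66 CPM with shBRG1 and 6.68, 5.14 and 7.01 CPM with shMITF. Both Hermes 3A knockdowns were lower in every sample, with log2 fold changes of -0.33 (standard error 0.089) and -0.69 (standard error 0.19), neither past the fold threshold. The NR1H3 exons share 4.17% of their length with ACP2 on the opposite strand, and the strand setting of the counting is not stated, so reads there cannot be assigned. Per kilobase, NR1H2 over NR1H3 was 0.85, 1.02 and 0.97 with shSCR1 and 4.57, 5.46 and 4.96 with shBRG1. It was 3.55 and 4.92 with shSCR2 and 10.5 and 7.87 with shMITF. The Hermes 3A values were 7.76, 7.97 and 7.25 with shSCR, 16.7, 16.5 and 17.4 with shBRG1 and 27.6, 30.6 and 25.1 with shMITF. The balance of the LXR transcripts therefore lay further toward NR1H2 in every knockdown sample than in every sample of its control, a ratio that no library scaling alters. It also differed between the scramble groups of 501Mel cells, where both shSCR2 samples lay above all 3 shSCR1 samples.

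**Figure D3:**
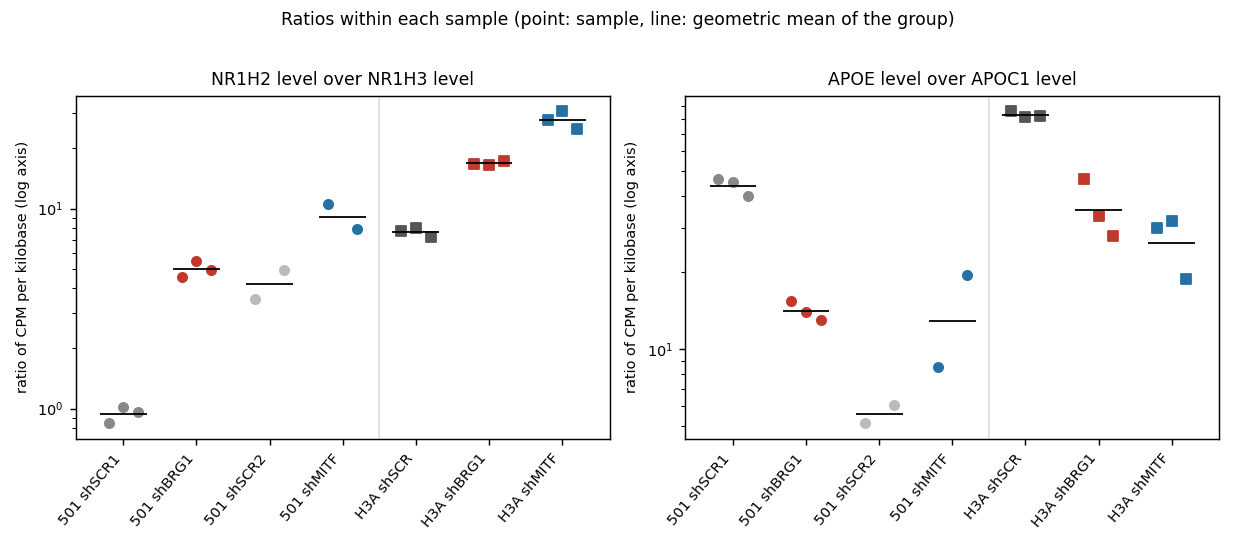
Ratio of NR1H2 to NR1H3 (left) and of APOE to APOC1 (right) in CPM per kilobase on log axes, by group (axis labels shorten the names of both lines; points are samples and lines are geometric means). The NR1H2 to NR1H3 ratio is 0.85 to 1.02 with shSCR1 and 25.1 to 30.6 in Hermes 3A cells with shMITF.

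ABCA1 (ENSG00000165029, chromosome 9, 104781002 to 104928237), the transporter that loads lipid onto apolipoproteins, separated the lines. It had 8.27, 7.55 and 9.04 CPM in the Hermes 3A control and 44.0, 39.4 and 45.6 CPM with shBRG1, for a log2 fold change of 2.38 (standard error 0.077), 5.22-fold higher. With shMITF it had 4.58, 9.55 and 6.35 CPM, which overlapped the control. So among Hermes 3A cells the rise was seen with shBRG1 alone. In 501Mel cells the gene was close to the limit of counting, with 10, 9 and 7 counts (0.20, 0.17 and 0.20 CPM) with shSCR1 and 22, 17 and 13 counts (0.37, 0.29 and 0.26 CPM) with shBRG1, for a log2 fold change of 0.62 (standard error 0.35). The shSCR2 samples had 8 and 12 counts and the shMITF samples had 0 and 0 counts, which against a floor of 3 counts over the shMITF group is at least 5.61-fold lower, for counting error only. The shMITF comparison of 501Mel cells could not be tested for ABCA1 at these counts. The gene models of the files differ between groups, but ABCA1 was listed for all of them.

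ABCG1 (ENSG00000160179, chromosome 21, 42199689 to 42297244), the partner transporter, was low in all samples. It had 22, 15 and 16 counts (0.50, 0.44 and 0.37 CPM) with shSCR, 33, 55 and 37 counts (0.71, 0.95 and 0.86 CPM) with shBRG1 and 54, 38 and 35 counts (1.54, 1.21 and 1.29 CPM) with shMITF in Hermes 3A cells. Both knockdown groups lay above the control, by a log2 fold change of 0.96 (standard error 0.31) for shBRG1 and 1.64 (standard error 0.34) for shMITF. The shMITF value no longer passed the thresholds when any shSCR sample was left out (1.74 without replicate 1, 1.64 without replicate 2 and 1.51 without replicate 3), and the shBRG1 value passed both without shSCR replicate 1, at 1.08, or without shBRG1 replicate 1, at 1.06. In 501Mel cells ABCG1 had 3 to 10 counts a sample and was not tested. ABCA1 and ABCG1 therefore both rose in Hermes 3A cells, each past the thresholds with a different knockdown. That difference between the transporters was not tested.

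MYLIP (ENSG00000007944, chromosome 6, 16129125 to 16148248) had 35.7 and 32.4 CPM with shSCR2 and 73.2 and 71.8 CPM with shMITF in 501Mel cells, for a log2 fold change of 1.13 (standard error 0.13). The groups were well apart, but the shSCR1 samples of the same line had 61.9, 58.3 and 57.6 CPM, close to the shMITF samples, and with both scramble groups as the control the value was 0.59 and no longer passed the thresholds. With shBRG1 in 501Mel cells MYLIP had 56.7, 54.7 and 55.8 CPM (log2 fold change -0.15, standard error 0.048, and 0.19 with library sizes in place of TMM factors). Hermes 3A cells had 42.6, 45.2 and 44.1 CPM with shSCR, 31.1, 30.2 and 31.3 CPM with shBRG1 and 42.6, 63.6 and 71.5 CPM with shMITF. The shBRG1 samples were all lower (log2 fold change -0.50, standard error 0.058) and the shMITF samples overlapped the control through replicate 1 (0.46, standard error 0.19).

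LPCAT3 (ENSG00000111684, chromosome 12, 6976186 to 7018510) passed the thresholds in no comparison, with group means from 22.2 to 35.1 CPM. Its log2 fold changes were -0.01 (standard error 0.057) for shBRG1 and -0.63 (standard error 0.22) for shMITF in 501Mel cells, and -0.15 (standard error 0.063) and 0.08 (standard error 0.12) in Hermes 3A cells. With library sizes in place of TMM factors the first of these became 0.34. The LPCAT3 exons share 65.6% of their length with EMG1 on the opposite strand, so reads of these genes cannot be told apart without the strand of counting.

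The effect of each shRNA was also set side by side between the lines, as 501Mel minus Hermes 3A. For shBRG1, 26.9% of the 21697 genes tested passed the thresholds for a difference, and among the 9 genes these were APOD at -6.06, ABCA1 at -1.79 and NR1H2 at 1.31 (log2). For shMITF, 2.64% of 19284 genes passed, among them ABCA1 at -5.80, a fitted value that rests on 0 counts in both 501Mel shMITF samples. With library sizes in place of TMM factors the shBRG1 differences of all genes shifted upward by a median of 0.27, and the share of calls above 0 went from 44.7% to 61.8%. These are descriptions, since both contrasts were used in choosing the genes.

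The scramble groups of 501Mel cells, shSCR2 and shSCR1, also differed from each other. The levels of the 9 genes in these samples were in view when the genes were chosen, so their values here are again a description, without a test. Of 19056 genes tested, 33.0% passed the thresholds in either direction, among them 4 of the 7 members tested, and nothing is read from that count. APOE had a log2 fold change, shSCR2 over shSCR1, of -1.89 (standard error 0.29), 3.69-fold lower, and NR1H3 one of -1.42 (standard error 0.16), 2.67-fold lower. APOD had -1.91 (standard error 0.62) and lay lower in both shSCR2 samples, which differed widely from each other. APOC1 had 1.12 (standard error 0.33), 2.18-fold higher, and 0.47 without shSCR2 replicate 1. The APOE and APOC1 values thus had opposite signs between the scramble groups, and the same sign with shBRG1. NR1H2 (0.73, standard error 0.093), MYLIP (-0.79, standard error 0.081) and LPCAT3 (0.60, standard error 0.12) lay under the fold threshold. With library sizes in place of TMM factors the values of all genes shifted by a median of -0.14. The sources do not state how the shSCR1 and shSCR2 vectors or cultures differ, so a level of these genes in 501Mel cells holds for its scramble group and not for the line.

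Among the genes around APOE on chromosome 19, 2 were called lower together with it, in the shBRG1 comparison of 501Mel cells. Of the 8 neighbours listed, 5 had enough counts to be tested. Of all genes tested with shBRG1 in 501Mel cells, 17.4% were called lower and 21.7% higher. With shBRG1 in 501Mel cells BCAM, a laminin receptor of the immunoglobulin superfamily, fell from 11.1 ± 0.35 to 0.77 ± 0.055 CPM (SD, n = 3 each, log2 fold change -3.91, standard error 0.11, edgeR adjusted p = 2.95e-19). NECTIN2, a cell adhesion molecule, fell from 58.7 ± 2.93 to 29.3 ± 1.06 CPM (log2 fold change -1.07, standard error 0.053, edgeR adjusted p = 7.31e-15). TOMM40, a subunit of the mitochondrial import pore that lies directly before APOE, went the other way, with a log2 fold change of 0.55 (standard error 0.050, edgeR adjusted p = 6.87e-10) under the fold threshold. CLPTM1 (0.29) and RELB (0.89) also lay above 0. BCAM and NECTIN2 were also lower with shSCR2 than with shSCR1 (log2 fold changes -2.37 and -1.12, edgeR adjusted p = 0.000388 and 3.44e-06). In the other 3 comparisons edgeR called 0 of these 5 neighbours and so did DESeq2, with 1, 4 and 2 of them at an unadjusted p under 0.05 for shMITF in 501Mel cells, shBRG1 in Hermes 3A cells and shMITF in Hermes 3A cells. APOC2 and APOC4, the other apolipoprotein genes of the cluster, had at most 4 counts a sample on average in any group.

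**Figure D4:**
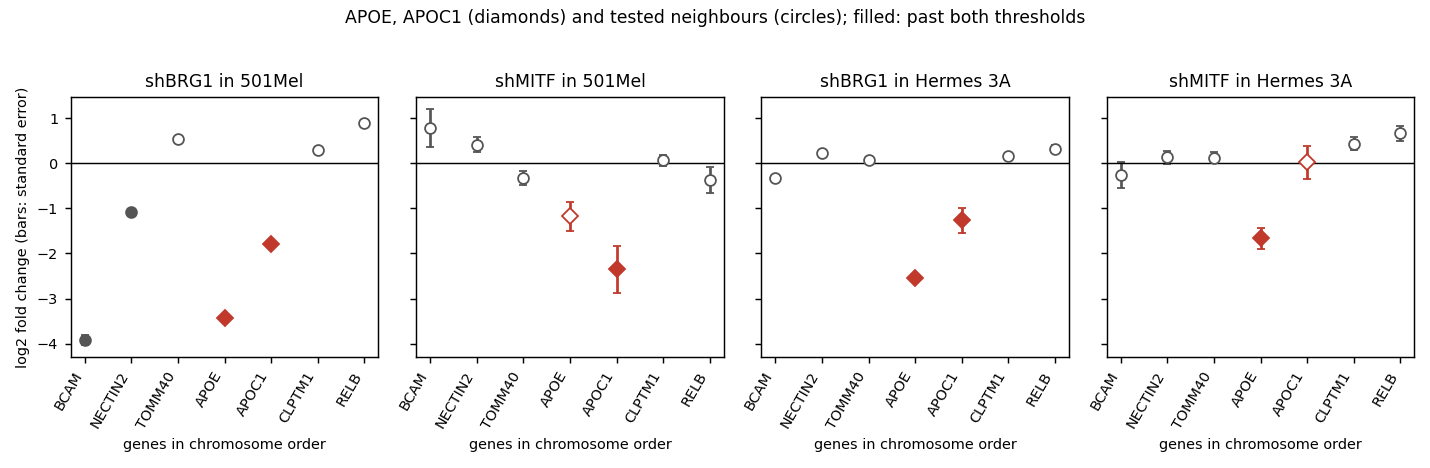
Log2 fold change of APOE and APOC1 (diamonds) and of the tested neighbours (circles) in chromosome order, 1 panel per knockdown comparison (bars are standard errors, filled symbols passed both thresholds). BCAM, NECTIN2, APOE and APOC1 lie under -1 with shBRG1 in 501Mel cells, while TOMM40, between NECTIN2 and APOE, lies at 0.55.

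A set of 7 lists with 80 other genes of the pathway was read beside the 9 genes. Of the 14 other LXR target genes, 9 were tested with shBRG1 in 501Mel cells, and edgeR called 5 lower and 0 higher, with 6 lower and 0 higher at an unadjusted p under 0.05 and the same 5 and 0 counts by DESeq2. Their median log2 fold change was -1.74, against 0.05 over all genes tested, of which 17.4% were called lower and 21.7% higher. SCD, the desaturase that makes monounsaturated fatty acids, fell from 662 ± 32.7 to 51.0 ± 4.98 CPM (SD, n = 3 each, log2 fold change -3.76, standard error 0.065, edgeR adjusted p = 2.87e-23). SREBF1, the regulator of fatty acid synthesis, and PLTP, the phospholipid transfer protein, had log2 fold changes of -1.89 (edgeR adjusted p = 1.82e-20) and -1.90 (edgeR adjusted p = 6.25e-20). LPL, lipoprotein lipase, had -2.47 (edgeR adjusted p = 1.6e-10) and MERTK, a receptor for the uptake of dying cells, -1.74 (edgeR adjusted p = 3.63e-18). Between the scramble groups of 501Mel cells, shSCR2 over shSCR1, SREBF1 (-1.06) and LPL (2.08) also passed the thresholds. SCD, PLTP and MERTK did not. SCD and SREBF1 are also targets of the sterol-regulated SREBP factors, so the list is not particular to LXR. In Hermes 3A cells edgeR called 0 of 7 tested with shBRG1, as did DESeq2, with 4 higher and 3 lower at an unadjusted p under 0.05 and a median of 0.28. Of all genes tested there, 5.78% were called higher and 3.47% lower. The difference of the shBRG1 effects between the lines passed the thresholds for the same 5 genes, for example SCD (-3.03, edgeR adjusted p = 9.54e-29) and SREBF1 (-2.30, edgeR adjusted p = 3.76e-27).

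With shMITF the LXR target list had no common direction. In 501Mel cells 2 of 9 were called higher and 0 lower, beside 5.59% of all genes tested higher and 3.40% lower. At an unadjusted p under 0.05 the list had 2 higher and 5 lower, DESeq2 called 1 higher and 1 lower, and the median was -0.79. In Hermes 3A cells 3 of 8 tested were called lower with shMITF, PLTP, SCD and MERTK, and 1 higher. Of all genes tested there, 4.04% were called lower and 3.35% higher. PLTP fell from 199 ± 8.93 to 80.6 ± 24.3 CPM (SD, n = 3 each, log2 fold change -1.28, standard error 0.21, edgeR adjusted p = 0.00606).

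Of the 10 genes listed as lipoprotein and APOE receptors with their regulators, all tested with shBRG1 in 501Mel cells, 7 fell and 2 rose, with a median log2 fold change of -1.40, beside 17.4% of all genes tested called lower, 21.7% called higher and a median of 0.05. LRP1, a large receptor that takes up APOE particles, fell from 264 ± 1.21 to 28.8 ± 3.24 CPM (SD, n = 3 each, log2 fold change -3.26, edgeR adjusted p = 1.22e-22). It was also lower with shSCR2 than with shSCR1, at 48.5 ± 23.4 CPM (SD, n = 2, log2 fold change -2.45, past the thresholds). LRP2, megalin, rose from 0.53 ± 0.090 to 1.83 ± 0.32 CPM (SD, n = 3 each, log2 fold change 1.69, standard error 0.21, edgeR adjusted p = 8.53e-08). With shMITF in 501Mel cells LRP2 rose from 0.63 ± 0.15 to 13.6 ± 1.81 CPM (SD, n = 2 each, log2 fold change 4.43, standard error 0.30, edgeR adjusted p = 0.000168). Outside shBRG1 in 501Mel cells, edgeR called 2 of 10 higher and 1 lower with shMITF in 501Mel cells. With shBRG1 in Hermes 3A cells it called 0 of 9 higher and 1 lower. DESeq2 called the same there, with 1 higher and 6 lower at an unadjusted p under 0.05. With shMITF in Hermes 3A cells edgeR called 1 of 9 higher and 2 lower, SCARB1 among the lower. Of all genes tested, in the same order, 5.59%, 5.78% and 3.35% were called higher and 3.40%, 3.47% and 4.04% lower. CD36 was called higher by shMITF in both lines and by shBRG1 in 501Mel cells (log2 fold change 1.49). Its counts were low, under 100 a sample on average in each of these groups. With shMITF its mean went from 0.19 to 0.82 CPM in 501Mel cells and from 0.24 to 1.03 CPM in Hermes 3A cells.

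Among the 21 other apolipoproteins, few were expressed: 10 were tested with shBRG1 in 501Mel cells and 8 in each of the other comparisons. With shBRG1 in 501Mel cells 3 rose and 4 fell, beside 21.7% of all genes tested called higher and 17.4% called lower. CLU, clusterin, rose from 5.94 ± 0.74 to 39.6 ± 3.49 CPM (SD, n = 3 each, log2 fold change 2.67, standard error 0.083, edgeR adjusted p = 8.99e-19) and APOL2 from 39.6 ± 1.8 to 111.0 ± 4.59 CPM (log2 fold change 1.42, standard error 0.051, edgeR adjusted p = 1.36e-17). CLU fell with shMITF in Hermes 3A cells, from 5.24 ± 0.64 to 1.91 ± 0.54 CPM (SD, n = 3 each, log2 fold change -1.43, standard error 0.28, edgeR adjusted p = 0.0119), a call lost without any one of the shSCR samples (-1.44, -1.35 and -1.53, edgeR adjusted p = 0.0548, 0.0697 and 0.0501). In the shBRG1 comparison of Hermes 3A cells APOL6 rose from 14.0 ± 1.13 to 30.4 ± 1.10 CPM (SD, n = 3 each, log2 fold change 1.13, standard error 0.070, edgeR adjusted p = 5.33e-14), a call lost with all Hermes 3A groups in 1 fit (edgeR adjusted p = 0.0802). With shBRG1 in 501Mel cells APOL6 fell, from 3.07 ± 0.23 to 1.08 ± 0.14 CPM (SD, n = 3 each, log2 fold change -1.58, standard error 0.15, edgeR adjusted p = 1.02e-09), and the difference between the lines passed the thresholds (-2.74, edgeR adjusted p = 2.64e-18). CLU and APOL6 were also lower with shSCR2 than with shSCR1 (log2 fold changes -1.96 and -1.86, past the thresholds).

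Of the 15 genes of sterol transport, esterification and oxysterol metabolism, 1 was called higher and 6 lower of 13 tested with shBRG1 in 501Mel cells. Of all genes tested there, 21.7% were called higher and 17.4% lower. With shBRG1 in Hermes 3A cells 2 of 14 were called higher and 0 lower, beside 5.78% of all genes tested higher and 3.47% lower. Of these 2, NPC1, the transporter that releases cholesterol from lysosomes, rose from 181 ± 2.19 to 456 ± 11.7 CPM (SD, n = 3 each, log2 fold change 1.34, standard error 0.039, edgeR adjusted p = 2.79e-21). In 501Mel cells NPC1 went from 143 ± 6.06 to 92.6 ± 1.86 CPM (log2 fold change -0.69, edgeR adjusted p = 2.31e-12), and the difference between the lines passed the thresholds (-2.07, edgeR adjusted p = 1.69e-26). NPC1 thus rose in the same comparison as ABCA1. With shMITF 1 of 12 was called higher in 501Mel cells, beside 5.59% of all genes tested. In Hermes 3A cells edgeR and DESeq2 both called 0 of 14 with shMITF, with 1 higher and 3 lower at an unadjusted p under 0.05. Of all genes tested there, 3.35% were called higher and 4.04% lower. Of the 10 LXR partners and co-regulators, all tested in each comparison, edgeR and DESeq2 both called 1, the coactivator NCOA1 (log2 fold change -1.57, edgeR adjusted p = 9.89e-17), with shBRG1 in 501Mel cells, and 0 in the other 3 comparisons, where 3, 9 and 2 genes had an unadjusted p under 0.05. RXRA, a binding partner of both LXRs, had log2 fold changes of -0.39, -0.31, -0.12 and -0.15 in the order used above. Of the 6 other lysophospholipid acyltransferases, MBOAT1 and MBOAT2 were called lower with shBRG1 in 501Mel cells and LPCAT1 with shMITF in Hermes 3A cells. These counts stand beside the same shares of all genes tested, 17.4% and 4.04% called lower.

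**Figure D5:**
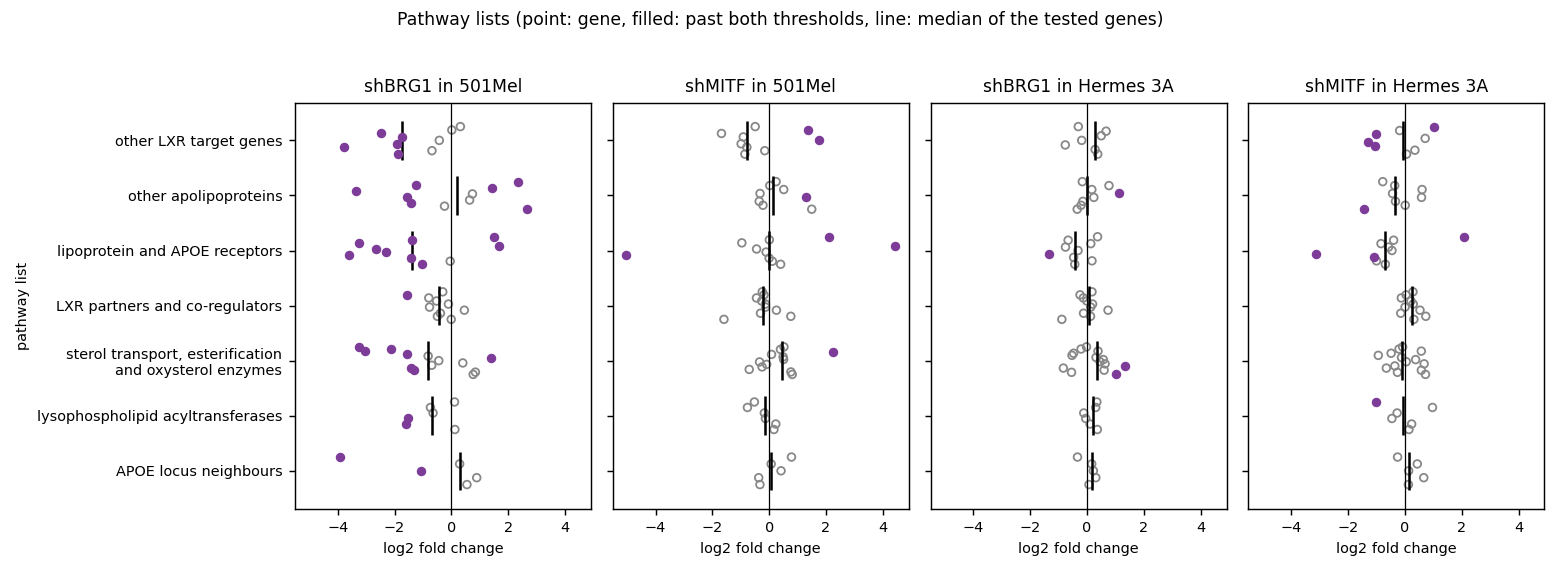
Log2 fold change of every tested gene of the 7 pathway lists in the 4 knockdown comparisons (points are genes, filled points passed both thresholds, black lines are list medians). The median of the LXR target list is -1.74 with shBRG1 in 501Mel cells and 0.28 with shBRG1 in Hermes 3A cells.

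Among 12789 genes with at least 100 counts a sample on average, those whose log2 level over the 19 samples was most like that of APOE were HSD17B8 and LIN52 (Pearson r = 0.96 each), MCAM (r = 0.94), BCAN (r = 0.93) and RGS20 (r = 0.93). Of the members, APOD (r = 0.81) and APOC1 (r = 0.74) were closest to APOE, while ABCA1 (r = -0.61) and ABCG1 (r = -0.60) ran the other way. These correlations are descriptions, in which points share lines, control groups and library composition.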

How the data were processed

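Total RNA depleted of ribosomal RNA was sequenced after duplex-specific nuclease treatment, which lowers abundant cDNAs and may understate differences of highly expressed genes such as APOE. Per the labels the reads were processed with CASAVA 1.8, Bowtie 0.12.7 and TopHat 1.4.1 on hg19, and the deposited files hold 1 raw read count per Ensembl gene and sample. The counter, annotation release and strand setting are not given in the sources used here. The gene lists differ between groups: for shMITF in Hermes 3A cells 33619 identifiers were shared by both groups, and the fit was restricted to these. The shSCR list held 8605 further identifiers, which had 0 counts, and the shMITF list held 414 others, which had 315 counts together. Both of these sets were left out of that comparison.

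Identifiers were matched to GENCODE 29 (GRCh38) for symbols (40913 of 44717), positions and exon lengths. Each comparison was fitted on its own groups in edgeR 4.0.16 (R 4.3.3): TMM factors, filterByExpr, robust glmQLFit and glmQLFTest, Benjamini-Hochberg adjustment over all genes tested, with calls at a log2 fold change above 1 in size and an adjusted p below 0.05. Fold change standard errors are the size of the estimate divided by the square root of F. CPM used TMM factors over all 19 samples, except in the marker sums, which used library totals alone. Correlations used log2(CPM + 0.5). The scripts were tested on simulated data. DESeq2 1.42.0, other scalings, other filters and left-out samples were tried as alternatives. Totals were 29158502 to 78857900 counts per sample, and a floor of 3 counts covers counting error only. The labels call the samples replicates without naming separate cultures, so p-values measure the spread between these samples, which may be technical.

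The members and pathway lists were chosen with earlier results of these data known. All 9 members are named, and of the lists at most the 3 genes up and 3 down per comparison with the largest change, at least 100 counts on average in the higher group and no overlap. The other list genes named were chosen after their values were seen. Some genes of the lists are not reported here.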

Additional observations from a re-analysis of the deposited data

Results flagged for a closer look

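For 3 genes the effect of shBRG1 differed between the lines past the thresholds used for all genes, in a test of the difference itself, given as 501Mel minus Hermes 3A on the log2 scale. These were APOD (-6.058, standard error 0.19), which fell in 501Mel cells and was near 1 CPM in Hermes 3A cells, ABCA1 (-1.791, standard error 0.36), which rose in Hermes 3A cells and had 7 to 22 counts a sample in the shSCR1 and shBRG1 samples, and NR1H2 (1.311, standard error 0.086), which was higher in both lines.

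For shMITF the difference passed for ABCA1 (-5.8, standard error 1.24), beside 2.64% of all 19284 genes tested. The fitted value for ABCA1 is no bound, since both 501Mel shMITF samples had 0 counts, and it no longer passed when any one of the 2 shSCR2, 2 501Mel shMITF or 3 Hermes 3A shSCR samples was left out. All 4 values are descriptions, since the genes were chosen with both contrasts known.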

How the results depend on the processing

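APOE, NR1H2 and ABCA1 kept direction in every alternative run for the 4 knockdown comparisons in which they were tested. With library sizes in place of TMM factors, shBRG1 in 501Mel cells gave NR1H3 0.087, MYLIP 0.19 and LPCAT3 0.34, the opposite sign to the reported values, and LPCAT3 became 0.12 under a minimum of 10 counts per sample. With both scramble groups as the control, NR1H3 (0.19) and MYLIP (0.16) for shBRG1 and NR1H3 (-0.81) for shMITF also changed sign in 501Mel cells. Genes called for shBRG1 went from 8024 to 5183 in 501Mel cells and from 1594 to 1056 in Hermes 3A cells under that minimum, a filter that leaves fewer genes to test. For shMITF in 501Mel cells, 1592 genes became 2518 with all groups of the line in 1 fit and 575 with both scramble groups as the control, and the 3 members called became 5 with no filter, 5 in 1 fit and 1 with both scramble groups. The cause was not tested. With the replicate block, the calls were 8014, 1857, 1613 and 1213 against 8024, 1592, 1594 and 1220, APOE with shMITF in 501Mel cells passed both thresholds (-1.10), and APOC1 with shMITF in Hermes 3A cells became -0.029. The labels do not state whether same-numbered samples were handled together. Their deviations from group means had correlations from -0.0489 to 0.131, and whether the samples were paired is not known. With a sample left out, shMITF in 501Mel cells called 956 to 2091 genes and 2 to 5 members, shMITF in Hermes 3A cells 590 to 1559 genes, shSCR2 against shSCR1 2 to 4 members, and the shMITF difference between lines 152 to 803 genes and 0 to 2 members. Log2 values then spanned 0 for APOD (-1.26 to 0.69) and NR1H3 (-0.059 to 0.47) with shMITF in 501Mel cells, APOD with shBRG1 (-0.11 to 0.15), APOD with shMITF (-0.59 to 0.32) and APOC1 with shMITF (-0.15 to 0.29) in Hermes 3A cells, NR1H3 in the shBRG1 difference between lines (-0.020 to 0.099) and APOD in the shMITF difference (-1.15 to 0.79). Low counts limit ABCA1 and ABCG1 in 501Mel cells and APOC1 and APOD in Hermes 3A cells.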
